A study of Mus musculus with 48 samples.

Results

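The measurements described here are the mRNA levels of the duodenal villi of mice killed 9 days after Roux-en-Y gastric bypass (RYGB) or sham surgery. They were taken by the surgery and tissue labels, and they comprise 7 of the 48 libraries of the series, 3 from the RYGB group and 4 from the sham group. All mice were male C57Bl6 with diet-induced obesity, without any engineered allele named in the labels. Both groups had been fed a high-fat diet, had undergone surgery and had then received a liquid elemental diet for 9 days. They were fasted before they were killed at 10 am. The villi were scraped off after 5 min in cold EDTA, so that a library holds the epithelium together with whatever lymphoid and stromal cells came off with it. The labels give neither the age nor the weight of the mice, and they do not say whether the sham group was matched for food intake or weight.

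The comparison addresses what happens to the lining of the upper intestine when it is excluded from food. RYGB leads food from a small pouch of the stomach straight into the jejunum and leaves the duodenum as a limb that carries bile and pancreatic juice but no meal. The duodenum is otherwise the segment that first meets the meal, where iron is taken up, where fat is split with the help of bile, and where endocrine cells secrete Cck, secretin and Gip. Its enterocytes take up fatty acids, rebuild them to triglyceride and export them in chylomicrons, burn part of them in mitochondria and peroxisomes, and oxidize or hydrolyze drugs and other foreign compounds from the lumen.

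Levels are given in CPM, that is, counts of each gene scaled to the same library total, rounded to 0.1. They cover 10907 genes, of which 10850 averaged 1 CPM or more and were tested. The read depth of the libraries is unknown, since no counts were given with them. The libraries held intestinal epithelium: the 8 enterocyte markers together ranged from 20814 to 25153 CPM in the sham libraries and from 21353 to 26566 CPM in the RYGB libraries. These markers do not tell the duodenum from the jejunum. Pdx1, the transcription factor of the duodenum and pancreas, was present in all 7, but at levels from 14.5 to 159.9 CPM. None of the 3 Brunner gland, 6 gastric and 8 smooth muscle markers was among the analysed genes.

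The sham libraries were far from alike. The 5 analysed genes of the pancreatic acinar list, among them Cela1 (an elastase), together reached 4995 CPM in sham replicate 1, 16476 CPM in sham replicate 2 and 3571 CPM in RYGB replicate 3, but 38.5 and 38.6 CPM in the other sham libraries and 21.1 and 54.0 CPM in the other RYGB libraries. These 3 libraries thus carried pancreatic RNA and stood on both sides of the comparison. Genes that change along the length of the small intestine also varied within a group. Slc40a1, the iron exporter ferroportin, measured 2468, 578, 856 and 26.9 CPM in the sham libraries and 25.2, 349.7 and 409 CPM in the RYGB libraries. Pdx1 measured 159.9, 65.8, 47.3 and 14.5 CPM in the sham group and 16.9, 50.2 and 75.0 CPM in the RYGB group. It was higher in each of the 3 libraries with pancreatic RNA than in any other library. What part pancreatic RNA had in the levels of Pdx1 was not tested. Anpep, an aminopeptidase of the brush border, went the other way with 186, 1556, 2214 and 8811 CPM in the sham group and 6581, 7273 and 7209 CPM in the RYGB group. Sham replicate 4 had low Slc40a1 and Pdx1 and high Anpep, as RYGB replicate 1 had, and sham replicate 1 was its opposite. Over all tested genes sham replicate 4 correlated with the RYGB libraries at 0.975 to 0.98 and with sham replicates 1, 2 and 3 at 0.926, 0.957 and 0.97 (Pearson, across genes, which are not independent replicates). In the sham libraries of the jejunum, which were normalized separately, Slc40a1 ranged from 1.6 to 21.1 CPM and Anpep from 5325 to 11746 CPM. For Anpep, sham replicate 4 and all RYGB libraries of the duodenum lay inside that range, and sham replicates 1, 2 and 3 lay below it. Whether the sampled position along the duodenum differed between mice was not tested. For named genes that passed the test without sham replicate 4, and for gene lists whose counts rest on the 3 libraries with pancreatic RNA, the values without these libraries are given too.

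**Figure D1:**
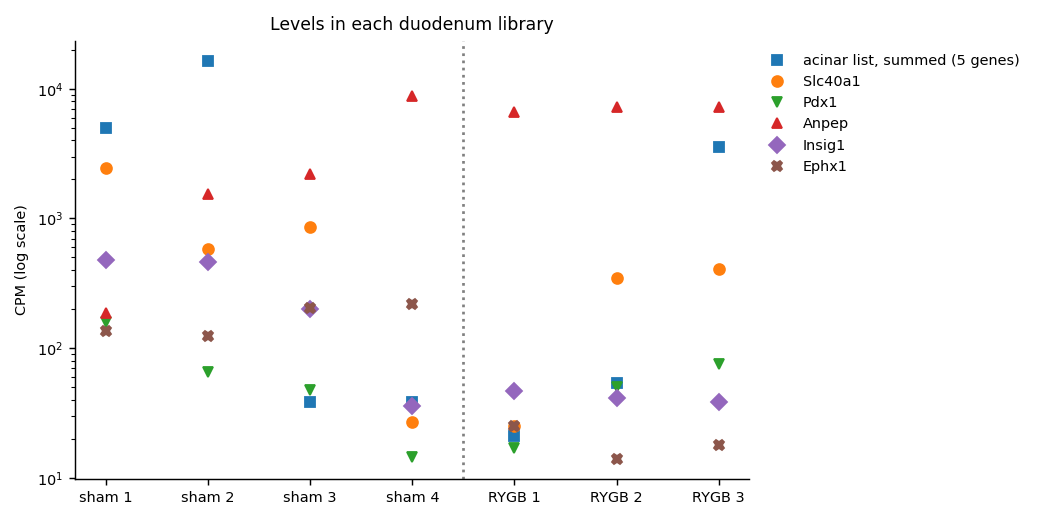
CPM (log scale) of 5 genes and of the summed acinar list in each of the 7 duodenum libraries, 1 symbol per library. The acinar sum was at 3571 CPM or more in sham 1, sham 2 and RYGB 3, Slc40a1 and Anpep differed more within the sham group than between the group means, and Ephx1 was lower in each RYGB library than in any sham library.

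Only 1 gene was a differentially expressed gene (DEG), which needed an adjusted p-value under 0.05 together with a fold change of 1.5 or more in either direction (limma, Benjamini-Hochberg adjustment), which is 0.00922% of the genes tested. At an unadjusted p under 0.05 there were 1628 genes with a higher mean in the RYGB group (15.0%) and 412 with a lower one (3.8%). The levels of the groups did not overlap for 1374 genes that were higher in every RYGB library than in every sham library (12.7%) and for 318 that were lower (2.93%). These shares are the background for the counts over all 7 libraries. Without the 3 libraries with pancreatic RNA, only 2 sham and 2 RYGB libraries remained, and 30.3% of all genes were higher and 10.1% lower without overlap. The balance between both directions depended on the scaling of the libraries. The median log2 fold change of all tested genes was 0.124, and when the libraries were rescaled by their median ratio, the median was 0.005 and the counts without overlap became 685 higher (6.31%) and 795 lower (7.33%). Sham replicate 4 decided how many genes passed the test: without it 733 genes were DEGs, 520 higher (4.79%) and 213 lower (1.96%) in the RYGB group. Except for the DEG Ephx1, the genes below are therefore described by their levels and not as changed, and p-values without this library stand beside them as an alternative only. They are no support, because sham replicate 4 was the sham library most like the RYGB group, so that leaving it out favours a difference. With any other library left out there were from 0 to 5 DEGs. The highest adjusted p-value with 1 library left out (limma) was 0.387 for Cyp4a10, Me1, Mbl2, Ces2a and Pdk4.

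The DEG was Ephx1, which encodes microsomal epoxide hydrolase, an enzyme of the endoplasmic reticulum that turns reactive epoxides from drug and steroid metabolism into diols. Its levels were 136, 123, 202 and 220.3 CPM in the sham libraries and 25.3, 14.0 and 17.8 CPM in the RYGB libraries. Every RYGB library was at or below 25.3 CPM and every sham library at or above 123 CPM, and the spread within each group was small beside this gap. Ephx1 fell by 3.09 on the log2 scale (SE 0.26, 95% interval -3.69 to -2.49, adjusted p = 0.0181, limma). An exact two-sided permutation test over the 7 libraries gave p = 0.0571, which is the smallest value that 3 against 4 libraries allow. With any 1 library left out the fold change stayed between -3.31 and -2.90 on the log2 scale, but the adjusted p-value then ranged from 0.00643 (without sham replicate 4) to 0.206 (without RYGB replicate 3), and it was over 0.05 also without sham replicate 2 (0.0502), sham replicate 3 (0.13) and RYGB replicate 2 (0.0685). Ephx1 lies on chromosome 1 from 180976210 to 181020904 on the minus strand (GRCm38, GENCODE M21).

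Ephx1 and Me1, another of the genes with the most negative log2 fold changes, are known in other tissues as targets of Nrf2, the regulator of antioxidant enzymes that binds the letters TGACNNNGC. Their promoter windows of 300 bases, from 250 before to 50 after the transcription start (RefSeq, GRCm38.p6), are printed because these letters can be looked for in them. Capitals mark a match on either strand.
Ephx1 (chr1:181017520-181017819, minus strand): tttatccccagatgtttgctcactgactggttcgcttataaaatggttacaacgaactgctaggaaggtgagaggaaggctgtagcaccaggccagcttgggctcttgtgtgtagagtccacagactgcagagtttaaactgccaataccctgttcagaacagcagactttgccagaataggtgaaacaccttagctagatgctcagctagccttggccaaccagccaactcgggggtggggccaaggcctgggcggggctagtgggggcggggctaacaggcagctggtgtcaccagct
Me1 (chr9:86695865-86696164, minus strand): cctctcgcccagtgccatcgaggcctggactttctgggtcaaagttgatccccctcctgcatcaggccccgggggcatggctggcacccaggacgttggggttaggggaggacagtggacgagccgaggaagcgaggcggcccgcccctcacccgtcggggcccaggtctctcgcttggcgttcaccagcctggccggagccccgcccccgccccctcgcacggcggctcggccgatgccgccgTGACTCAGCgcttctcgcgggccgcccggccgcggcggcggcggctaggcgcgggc
The Me1 window held 1 match, starting 6 bases before the transcription start, and the Ephx1 window held none. The Ephx1 window lies around a RefSeq start inside the GENCODE span given above. On the minus strand that span begins at 181020904, and the sequence around that position was not searched. The letters occurred in 12.4% of all 32851 promoter windows and in 5 of the 27 windows found for the 31 named genes that were lower in every RYGB library. A match is only a string of letters, and no binding was measured.

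By the rule for named genes, the most negative log2 fold changes included those of Ces2b, Cyp2c29, Cyp2c55, Ephx1, Me1, Cyp4a10, Ces2a, Gm6977 and Cyp2c66, of which only Ephx1 passed the test. Cyp4a10, which hydroxylates fatty acids and is a classical target of PPAR alpha, had 449.8, 239, 265 and 114 CPM in the sham group and 34.3, 39.3 and 26.5 CPM in the RYGB group, with no RYGB library over 39.3 CPM. On the log2 scale the fold change was -2.82 (SE 0.40, adjusted p = 0.0933), and it was -3.18 (adjusted p = 0.00635) without sham replicate 4. For Gm6977, annotated as a processed pseudogene, it was -2.59 with and -3.34 (adjusted p = 0.00229) without that library.

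**Figure D2:**
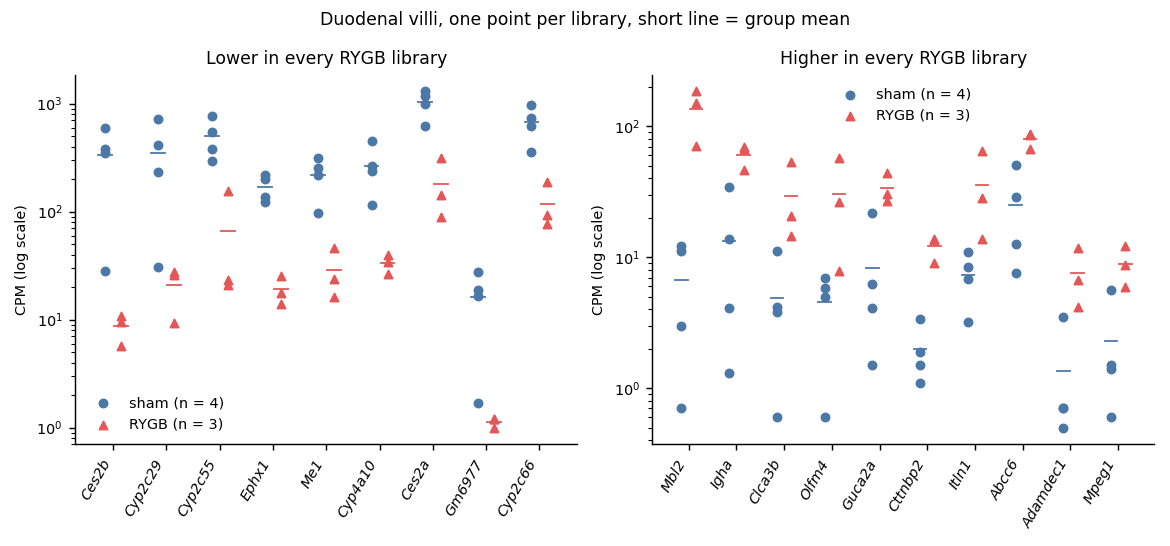
CPM (log scale) of 9 genes named for the most negative and 10 for the most positive log2 fold change among genes whose groups did not overlap, with 1 point per library and a short line at the group mean. The groups were chosen not to overlap, so that only the size and the spread are to be read; for Ces2b, Cyp2c55, Me1, Cyp4a10, Gm6977 and Cyp2c66 sham replicate 4 is the lowest sham point.

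Of the 19 genes of fatty acid oxidation and ketogenesis, 8 were lower in every RYGB library, against 2.93% of all tested genes, and none was higher. An unadjusted p under 0.05 with a lower level was found for 11, against 3.8% of all genes. The median log2 fold change of the list was -0.63, and -0.76 after median ratio scaling. Pdk4, a kinase that restrains the entry of pyruvate into the citric acid cycle when fat is burned, had 235, 115, 129.6 and 191 CPM in the sham group and 38.7, 43.3 and 61.6 CPM in the RYGB group, without overlap and with sham replicate 4 well inside its group. This gave a log2 fold change of -1.76 (SE 0.27, adjusted p = 0.0933). Slc25a20, the carrier that brings acylcarnitines into mitochondria, had 362, 188, 216 and 111 CPM in the sham libraries and 101, 87.2 and 67.1 CPM in the RYGB libraries. Here sham replicate 4 lay next to the RYGB libraries. The dehydrogenase Acadl was 666, 621, 640.5 and 394 CPM in the sham group and 303, 306 and 335 CPM in the RYGB group. The trifunctional protein subunits Hadha and Hadhb had log2 fold changes of -0.63 and -0.80, with adjusted p-values of 0.187 and 0.146. Ppara itself, the receptor that drives many of these genes, measured 24.1, 23.6, 39.5 and 38.5 CPM in the sham group and 37.8, 35.5 and 47.5 CPM in the RYGB group and overlapped between the groups. Without sham replicate 4, 11 members were DEGs, all lower in the RYGB group (1.96% of all genes). Among them the log2 fold change was then -1.67 (adjusted p = 0.0229) for Pdk4, -1.54 (adjusted p = 0.0225) for Slc25a20, -1.03 (adjusted p = 0.0163) for Acadl, -0.78 (adjusted p = 0.0446) for Hadha and -0.96 (adjusted p = 0.0225) for Hadhb. Without the 3 libraries with pancreatic RNA, 9 of the 19 were lower in each remaining RYGB library, against 10.1% of all genes, with Ppara among them at a log2 fold change of -0.09.

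**Figure D3:**
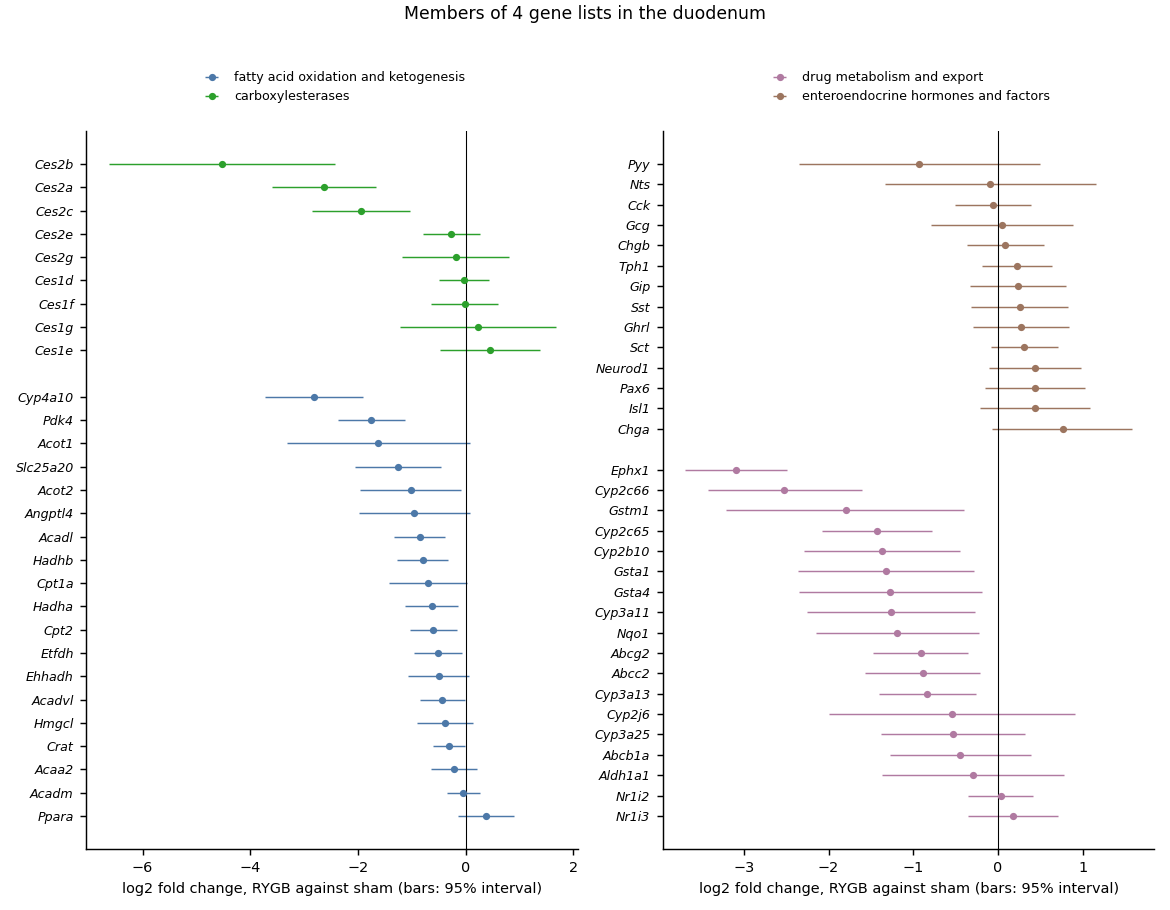
Log2 fold changes of RYGB against sham with 95% intervals for the members of 4 gene lists in the duodenum. Ces2a, Ces2b and Ces2c stand apart from the other carboxylesterases, 18 of 19 genes of fatty acid oxidation and ketogenesis lie to the left of 0, and the intervals of all 14 hormone genes and factors include 0.

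The carboxylesterases split into a pair of groups. Ces2a, Ces2b and Ces2c, hydrolases of drug esters and glycerides in the endoplasmic reticulum, were lower in every RYGB library (2.93% of all genes), and the other 6 measured members overlapped. Ces2b had 596, 376, 346 and 28.1 CPM in the sham libraries and 9.6, 10.9 and 5.7 CPM in the RYGB libraries. Sham replicate 4 lay far below the other sham libraries, at 2.58 times the highest RYGB library. This gave a log2 fold change of -4.53 (SE 0.92, adjusted p = 0.126), and it was -5.50 (adjusted p = 0.00088) without sham replicate 4. Ces2a had 621, 1300.0, 1183 and 997 CPM in the sham group and 315, 141 and 89.5 CPM in the RYGB group, and the log2 fold change was -2.63 (SE 0.42, adjusted p = 0.0962). Ces2c had 1180.3, 1010.3, 1114 and 358 CPM in the sham group and 202, 255 and 193 CPM in the RYGB group, and the log2 fold change was -1.94 (SE 0.40, adjusted p = 0.132). Without sham replicate 4 the log2 fold change was -2.63 (adjusted p = 0.0243) for Ces2a and -2.35 (adjusted p = 0.00334) for Ces2c. By contrast Ces2e measured 1238, 1736, 1849 and 2091 CPM in the sham libraries and 1378, 1570.5 and 1293 CPM in the RYGB libraries, with a 95% interval of -0.79 to 0.26 for its log2 fold change. Without the 3 libraries with pancreatic RNA, 5 of the 9 carboxylesterases were lower without overlap (10.1% of all genes), Ces2e among them at -0.42. Ces2a, Ces2b and Ces2c lie side by side on chromosome 8 between 104734003 and 104854483 (GRCm38).

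Of the 18 genes of drug metabolism and export, 5 were lower in every RYGB library (2.93% of all genes) and 12 had a lower level with an unadjusted p under 0.05 (3.8% of all genes). None was higher on either count, and the median log2 fold change was -1.05. Cyp2c66 and Cyp2c65 belong to this list, and Cyp2c55 and Cyp2c29 to none. Cyp2c66 had 743, 619.9, 976 and 358 CPM in the sham group and 188, 76.2 and 92.4 CPM in the RYGB group, and the log2 fold change was -2.52 (SE 0.39, adjusted p = 0.0933). Cyp2c65 had 1298, 1050.1, 1330.0 and 594 CPM in the sham group and 399, 371 and 362 CPM in the RYGB group, and the log2 fold change was -1.43 (SE 0.28, adjusted p = 0.118). Cyp2c55 had 766, 380.5, 548 and 292 CPM in the sham libraries and 155, 20.9 and 23.2 CPM in the RYGB libraries, and the log2 fold change was -3.42 (SE 0.67, adjusted p = 0.118). The lowest RYGB values of Cyp2c55 were a small fraction of any sham value, while RYGB replicate 1 was much nearer to the sham group. Cyp2c29 had 30.4, 235, 719 and 412 CPM in the sham group and 25.8, 9.4 and 27.7 CPM in the RYGB group. Its groups were separated only by the gap between 27.7 and 30.4 CPM, since sham replicate 1 was low. These genes are close copies of each other and neighbours on chromosome 19, as are the Ces2 genes on chromosome 8, so that reads may have been divided between them in ways the deposited values do not show. Cyp3a13 was lower in each RYGB library with 2650.0, 2734, 3594 and 3621 CPM in the sham group and 1393, 2184 and 1742 CPM in the RYGB group, whereas Cyp3a11 overlapped with 1879, 1832, 2724 and 3832 CPM in the sham libraries and 2019.6, 828 and 632 CPM in the RYGB libraries. The drug exporter Abcg2 had 350.5, 344, 469 and 223 CPM in the sham group and 192, 194 and 150.2 CPM in the RYGB group, and the log2 fold change was -0.91 (SE 0.24, adjusted p = 0.147). The glutathione transferase Gsta4 had 558, 472, 498 and 141 CPM in the sham group and 117, 137 and 221 CPM in the RYGB group, and the quinone reductase Nqo1 had 45.0, 53.8, 61.0 and 17.5 CPM in the sham libraries and 25.8, 12.4 and 15.6 CPM in the RYGB libraries. For both, sham replicate 4 lay among the RYGB libraries. The nuclear receptors that govern this programme, Nr1i2 (PXR) and Nr1i3 (CAR), had log2 fold changes of 0.03 (95% interval -0.35 to 0.41) and 0.18 (-0.35 to 0.71). Without sham replicate 4, 7 of the 18 genes were DEGs, all lower (1.96% of all genes). The log2 fold change was then -2.79 (adjusted p = 0.0156) for Cyp2c66, -1.69 (adjusted p = 0.00942) for Cyp2c65, -1.11 (adjusted p = 0.0217) for Abcg2, -1.73 (adjusted p = 0.0163) for Gsta4 and -1.57 (adjusted p = 0.0216) for Nqo1, and -3.64 (adjusted p = 0.0293) for Cyp2c55 outside the list. When the libraries with pancreatic RNA were left out, 12 of the 18 were lower without overlap (10.1% of all genes), with Cyp3a11 at -1.32 and Gsta4 at -1.06 among them.

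Some genes of fat handling had lower levels in every RYGB library, but most of them overlapped. Of 22 genes of fat uptake and chylomicron assembly, 5 were lower in every RYGB library (2.93% of all genes) and 6 had a lower level at an unadjusted p under 0.05 (3.8% of all genes). The median log2 fold change was -0.20. Scarb1, a scavenger receptor for lipids at the brush border, had 273, 134, 122 and 61.1 CPM in the sham group and 23.0, 57.1 and 51.8 CPM in the RYGB group. Sham replicate 4 at 61.1 CPM and RYGB replicate 2 at 57.1 CPM nearly met. Apoc2, the cofactor of lipoprotein lipase that is carried on chylomicrons, had 3115, 2524, 2209.8 and 1984 CPM in the sham group and 1244, 1549 and 1246 CPM in the RYGB group, and the log2 fold change was -0.85 (SE 0.23, adjusted p = 0.147). Fitm2, which helps triglyceride to bud into droplets, and Sar1b, the GTPase that sends chylomicrons out of the endoplasmic reticulum, had log2 fold changes of -0.71 and -0.57. Apoa4, among the most abundant mRNAs of the tissue, measured 25312, 25594, 21866 and 22821 CPM in the sham libraries and 15312, 21713 and 12999.6 CPM in the RYGB libraries, so that the groups were separated only by the gap between 21713 and 21866 CPM. Without sham replicate 4, Scarb1, Fitm2 and Sar1b were DEGs with -1.98 (adjusted p = 0.0332), -0.92 (adjusted p = 0.0163) and -0.72 (adjusted p = 0.0295), where 1.96% of all genes were DEGs with a lower level. Among the 4 libraries low in pancreatic RNA, 7 of the 22 genes were lower without overlap (10.1% of all genes). The other abundant members overlapped in the full set. Fabp1 had 8389.7, 13085, 11878 and 5278 CPM in the sham group and 5318, 4418 and 3918 CPM in the RYGB group. Apob had a log2 fold change of -0.10 (95% interval -0.89 to 0.68) and Apoa1 one of 0.28 (-0.40 to 0.95). The 5 genes of sterol uptake and efflux all overlapped, with Npc1l1, the cholesterol importer, at 543, 619.7, 695 and 1622 CPM in the sham group and 794, 1231 and 1117 CPM in the RYGB group.

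Of the 14 measured genes of fatty acid synthesis and NADPH supply, 3 were lower in every RYGB library (2.93% of all genes) and the other 11 overlapped, and none passed the test. Me1, the cytosolic malic enzyme that yields NADPH, had 312, 252, 219 and 96.7 CPM in the sham libraries and 45.8, 23.9 and 16.3 CPM in the RYGB libraries. On the log2 scale the fold change was -2.90 (SE 0.44, adjusted p = 0.0933), and it was -3.25 (adjusted p = 0.00942) without sham replicate 4. Pgd and G6pdx, enzymes of the pentose phosphate pathway, were also lower in every RYGB library. Pgd had 415, 375, 326 and 256 CPM in the sham group and 226, 237 and 218 CPM in the RYGB group, and the log2 fold change was -0.57 (SE 0.18, adjusted p = 0.176). G6pdx had 51.1, 53.7, 62.3 and 56.9 CPM in the sham group and 40.6, 40.4 and 43.5 CPM in the RYGB group, and the log2 fold change was -0.42 (SE 0.12, adjusted p = 0.151). With sham replicate 4 left out, Pgd was a DEG with -0.70 (adjusted p = 0.0351). The median log2 fold change of the list was -0.23.

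Cholesterol synthesis differed more between the sham mice than between the groups. The 18 measured genes together were at 2960, 2447, 1355 and 687 CPM in the 4 sham libraries and at 831, 659 and 750.0 CPM in the RYGB libraries. None of them was without overlap, 6 had a lower level at an unadjusted p under 0.05 (3.8% of all genes), and the median log2 fold change was -1.0. After median ratio scaling 5 of the 18 were lower without overlap (7.33% of all genes), Sc5d among them. Insig1, a target of the sterol-regulated transcription factor SREBP, had 477, 458, 200.4 and 35.5 CPM in the sham libraries and 46.3, 41.0 and 38.3 CPM in the RYGB libraries. Hmgcs1, an early enzyme of the pathway, had 594, 377, 143 and 53.9 CPM in the sham group and 91.9, 72.8 and 83.8 CPM in the RYGB group. Sc5d, a late one, had 266, 249, 246 and 154 CPM in the sham group and 129, 163 and 151 CPM in the RYGB group. In each of them sham replicate 4 lay within or below the RYGB range before that scaling. When sham replicate 4 was left out, 10 of the 18 were DEGs and lower in the RYGB group (1.96% of all genes), with -3.05 (adjusted p = 0.00942) for Insig1, -1.93 (adjusted p = 0.0485) for Hmgcs1 and -0.78 (adjusted p = 0.0246) for Sc5d. Without the 3 libraries with pancreatic RNA, which include the sham libraries with the highest sums, the log2 fold change of Insig1 was -0.94 and that of Hmgcs1 -0.10.

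Most genes for the digestion and uptake of sugars and peptides overlapped between the groups in the full set. Of 15 genes for sugars only Fbp1, a gluconeogenic phosphatase, was without overlap (2.93% of all genes were lower), with 84.3, 190.0, 128 and 148 CPM in the sham libraries and 75.4, 24.7 and 24.4 CPM in the RYGB libraries. Sis, the sucrase-isomaltase, measured 1916, 8111, 13582 and 9347 CPM in the sham group and 5814, 4105 and 4552 CPM in the RYGB group. Slc5a1, the glucose transporter SGLT1, measured 1699, 4231, 4139 and 6432 CPM in the sham group and 4303, 5456 and 5484 CPM in the RYGB group, with a 95% interval of -0.56 to 1.44 for its log2 fold change. When the libraries with pancreatic RNA were left out, 8 of the 15 were lower without overlap (10.1% of all genes), and the log2 fold change of Sis was -1.21 against -0.48 with all libraries. None of the 20 genes of peptide and amino acid absorption was without overlap. Their median log2 fold change was 0.65, led by Anpep and by Ace, the brush border peptidase, with 172, 518, 852 and 4549 CPM in the sham libraries and 3063, 3598 and 3761 CPM in the RYGB libraries. For both genes sham replicate 4 was the highest of all libraries, and without it Ace was a DEG with 3.03 (adjusted p = 0.0225).

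Genes of iron handling pointed in both directions. Tfrc, the transferrin receptor that is made when cells lack iron, had 19.1, 14.8, 30.0 and 22.0 CPM in the sham group and 81.1, 46.1 and 65.4 CPM in the RYGB group, and the log2 fold change was 1.54 (SE 0.26, adjusted p = 0.104). Ftl1, a subunit of the iron store ferritin, had 183, 111, 119 and 90.9 CPM in the sham group and 64.8, 68.5 and 69.5 CPM in the RYGB group, and the log2 fold change was -0.84 (SE 0.22, adjusted p = 0.146). The other subunit, Fth1, had 13961, 9402, 8986 and 5559.8 CPM in the sham libraries and 2839, 6813 and 6507 CPM in the RYGB libraries and overlapped, as did Slc40a1. Of the 10 measured genes for iron, folate and calcium, Tfrc and Ftl1 were the only ones without overlap (12.7% of all genes were higher and 2.93% lower). Among 15 genes for ions and water, Aqp7, a channel for water and glycerol, had a narrow spread within each group, with 76.8, 87.7, 77.0 and 82.8 CPM in the sham group and 27.9, 36.8 and 22.3 CPM in the RYGB group. This gave a log2 fold change of -1.48 (SE 0.17, adjusted p = 0.0687). Slc12a2, the basolateral chloride importer of secreting crypt cells, was higher with 6.4, 3.8, 5.4 and 6.7 CPM in the sham group and 32.6, 9.1 and 14.8 CPM in the RYGB group. Guca2a, the peptide guanylin, was higher with 1.5, 4.1, 6.2 and 21.6 CPM in the sham libraries and 44.3, 26.7 and 30.3 CPM in the RYGB libraries, and the log2 fold change was 2.33 (SE 0.63, adjusted p = 0.148). With sham replicate 4 left out, the log2 fold change was 1.57 (adjusted p = 0.0262) for Tfrc, -0.98 (adjusted p = 0.0313) for Ftl1, -1.47 (adjusted p = 0.0163) for Aqp7 and 2.91 (adjusted p = 0.0163) for Guca2a. The relative of Guca2a, Guca2b, overlapped with 219, 662, 630.5 and 881 CPM in the sham group and 796, 701 and 744 CPM in the RYGB group. The 4 measured genes of bile acid uptake and signalling all overlapped, and their median log2 fold change was 0.23.

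The levels of all 14 measured enteroendocrine hormones and factors overlapped, and none had an unadjusted p under 0.05. Gip measured 95.5, 102, 128 and 151 CPM in the sham group and 190.0, 98.3 and 141 CPM in the RYGB group, with a 95% interval of -0.33 to 0.80 for its log2 fold change. Cck measured 41.5, 48.1, 40.1 and 43.0 CPM in the sham libraries and 48.9, 29.2 and 49.2 CPM in the RYGB libraries, with an interval of -0.51 to 0.39, and Sct (secretin) had 48.3, 42.4, 34.2 and 40.3 CPM in the sham group and 58.8, 41.1 and 55.5 CPM in the RYGB group, with an interval of -0.08 to 0.71. Among the 4 libraries low in pancreatic RNA, Sct was higher without overlap (30.3% of all genes), with a log2 fold change of 0.40. Chga, a general marker of endocrine cells, had 37.8, 37.8, 43.1 and 111 CPM in the sham group and 101, 76.6 and 85.7 CPM in the RYGB group, and without sham replicate 4 it was a DEG (log2 fold change 1.12, adjusted p = 0.0163). Cck and Pdx1, and above Ppara, Gsta4, Nqo1, Nr1i2 and Nr1i3, were chosen after their values were seen. Of the 10 measured goblet cell genes none was without overlap. Fcgbp, a protein of the mucus, had 2068, 1836, 1367 and 5040.4 CPM in the sham libraries and 4942, 3807 and 5849 CPM in the RYGB libraries, and the sham library that reached the RYGB range was again replicate 4, without which Fcgbp was a DEG with 1.47 (adjusted p = 0.0293). Of the 13 transcription factors of segment identity, 1 was higher in every RYGB library, against 12.7% of all genes. This was Cdx1, which marks the more distal intestine and had 40.9, 31.4, 22.6 and 36.6 CPM in the sham group and 56.9, 55.6 and 53.6 CPM in the RYGB group, and the log2 fold change was 0.77 (SE 0.20, adjusted p = 0.145). In the 4 libraries low in pancreatic RNA, 4 of the 13 were higher and 2 lower without overlap, where 30.3% of all genes were higher and 10.1% lower.

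**Figure D4:**
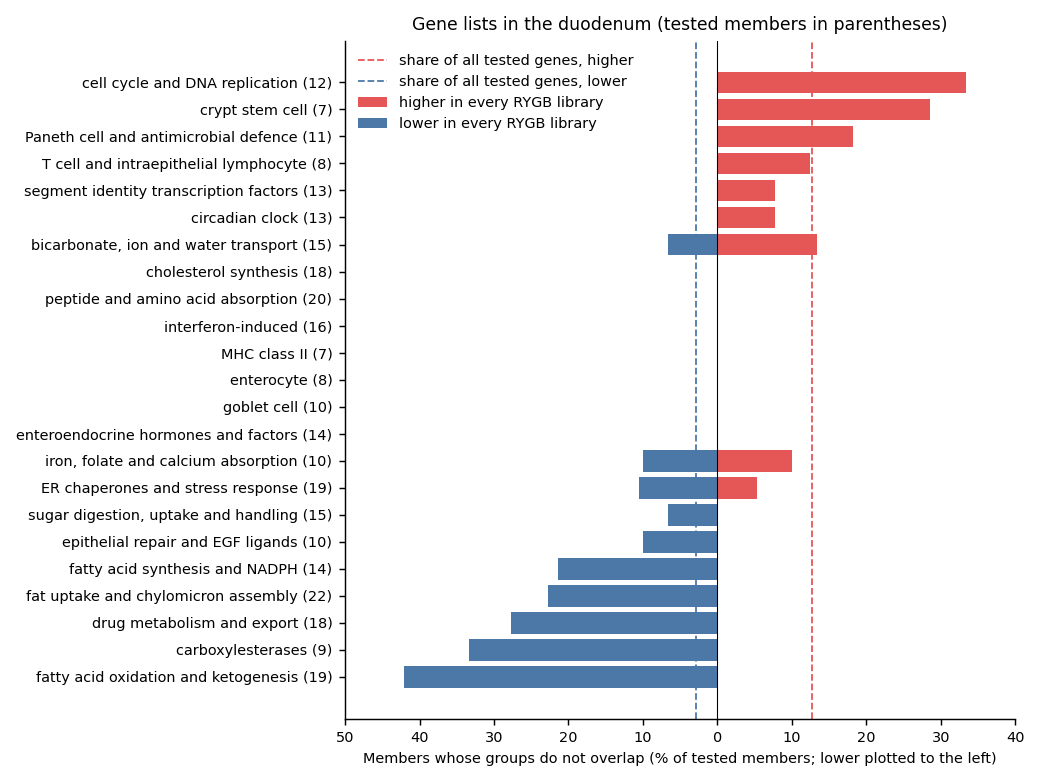
Share of the tested members of each gene list with at least 7 tested members that were higher (right) or lower (left) in every RYGB library, with dashed lines at the shares of all tested genes, 12.7% and 2.93%. The lists of fatty acid oxidation, carboxylesterases, drug metabolism, fat uptake and fatty acid synthesis extend farthest to the left, and those of the cell cycle, crypt and antimicrobial defence farthest to the right.

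The most positive log2 fold changes, by the rule for named genes, were those of Mbl2, Igha, Clca3b, Olfm4, Guca2a, Cttnbp2, Itln1, Abcc6, Adamdec1 and Mpeg1, none of which passed the test. Mbl2, a lectin of the complement system, had 12.1, 3.0, 0.7 and 11.1 CPM in the sham group and 71.2, 149.6 and 185 CPM in the RYGB group. On the log2 scale the fold change was 4.46 (SE 0.70, adjusted p = 0.0933), and it was 4.82 (adjusted p = 0.0171) without sham replicate 4. Cttnbp2, a protein that binds cortactin, had 1.9, 1.5, 1.1 and 3.4 CPM in the sham libraries and 13.5, 13.8 and 9.1 CPM in the RYGB libraries, with the lowest standard error of these genes. This gave a log2 fold change of 2.18 (SE 0.27, adjusted p = 0.0894), and it was 2.38 (adjusted p = 0.00664) without sham replicate 4. Abcc6, an exporter of the basolateral membrane, had 7.6, 12.6, 28.8 and 50.8 CPM in the sham group and 67.5, 85.9 and 87.0 CPM in the RYGB group, where the sham libraries spread over a wide range, and the log2 fold change without sham replicate 4 was 2.41 (adjusted p = 0.0219). Clca3b, a secreted protein of the calcium-activated chloride channel regulator family, had 11.1, 0.6, 3.8 and 4.2 CPM in the sham group and 53.2, 14.6 and 20.7 CPM in the RYGB group. Of the 7 measured crypt genes, Olfm4 and Smoc2 were higher without overlap (12.7% of all genes), and Axin2, Sox9, Ephb2, Rgmb and Cd44 overlapped, with log2 fold changes from -0.34 for Sox9 to 0.45 for Axin2. Olfm4, a marker of crypt base cells, had 5.8, 0.6, 5.0 and 6.9 CPM in the sham libraries and 57.2, 7.9 and 26.4 CPM in the RYGB libraries. RYGB replicate 2 at 7.9 CPM was hardly above sham replicate 4 at 6.9 CPM. Smoc2, another marker of intestinal stem cells, had 1.4, 1.7, 1.4 and 1.9 CPM in the sham group and 7.1, 2.7 and 5.3 CPM in the RYGB group, and the log2 fold change was 1.15 (SE 0.26, adjusted p = 0.134). Among 12 measured genes of the cell cycle, 4 were higher in every RYGB library (12.7% of all genes) and 6 at an unadjusted p under 0.05 (15.0% of all genes), the other 8 overlapped, and after median ratio scaling 3 were higher without overlap (6.31% of all genes). Mki67, the marker of dividing cells, had 3.9, 1.7, 8.1 and 6.1 CPM in the sham group and 36.1, 9.6 and 11.9 CPM in the RYGB group, and the log2 fold change was 1.67 (SE 0.52, adjusted p = 0.17). Top2a had 3.9, 1.5, 5.4 and 7.2 CPM in the sham libraries and 25.9, 8.6 and 13.9 CPM in the RYGB libraries. Ccna2 and Ccnb2 had log2 fold changes of 1.62 and 1.34, and without sham replicate 4 Ccnb2 was a DEG with 1.52 (adjusted p = 0.0295). When the libraries with pancreatic RNA were left out, 6 of the 12 cell cycle and 3 of the 7 crypt genes were higher without overlap (30.3% of all genes). Pcna, which is needed for DNA replication and repair, overlapped with 23.4, 21.1, 22.5 and 14.3 CPM in the sham group and 15.9, 13.2 and 17.2 CPM in the RYGB group. RYGB replicate 1 was the highest library for Olfm4, Smoc2, Mki67, Top2a, Ccna2 and Ccnb2. Whether more of the crypt was scraped off in this library was not tested.

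Of the 11 measured genes of antimicrobial defence 2, Itln1 and Pigr, were higher in every RYGB library (12.7% of all genes). Itln1, a lectin of Paneth and goblet cells, had 8.5, 6.8, 3.2 and 10.9 CPM in the sham group and 64.6, 28.4 and 13.9 CPM in the RYGB group. Pigr, the receptor that carries antibodies of the IgA class into the lumen, had 8802, 5252, 6476 and 6993 CPM in the sham libraries and 9214, 11668 and 9068 CPM in the RYGB libraries, and the log2 fold change was 0.55 (SE 0.31, adjusted p = 0.375). After median ratio scaling 1 of the 11 was without overlap (6.31% of all genes). Among the 4 libraries low in pancreatic RNA, 7 of the 11 were higher without overlap (30.3% of all genes). Duox2, which makes hydrogen peroxide at the epithelial surface, was high in 1 sham and 2 RYGB libraries with 90.6, 4.0, 1.1 and 4.7 CPM in the sham group and 119.6, 91.3 and 1.2 CPM in the RYGB group. Its log2 fold change was 1.75 with all libraries and 4.93, higher without overlap, without the 3 libraries with pancreatic RNA, which hold that sham library and the low RYGB library. The lectin Reg3g had 2504, 1403, 3320.3 and 1202 CPM in the sham group and 1655, 557 and 369 CPM in the RYGB group. Tgfa, a ligand of the EGF receptor, was lower in every RYGB library with 65.0, 51.4, 47.7 and 42.5 CPM in the sham libraries and 33.6, 41.4 and 42.3 CPM in the RYGB libraries, the only such gene among 10 of epithelial repair (2.93% of all genes). Of 19 genes of the endoplasmic reticulum and stress response, Creld2 and Dnajc3 were lower (2.93% of all genes) and Atf4 higher (12.7%) without overlap, with log2 fold changes of -0.31, -0.29 and 0.39. After median ratio scaling the higher level of Atf4 no longer held without overlap. In the 4 libraries low in pancreatic RNA, 8 of the 19 were lower and 3 higher without overlap (10.1% and 30.3% of all genes). None of the 16 interferon-induced genes was without overlap, and 1 of the 13 clock genes, Npas2, was higher (12.7% of all genes) with 39.3, 34.3, 35.6 and 21.8 CPM in the sham group and 41.8, 57.0 and 41.4 CPM in the RYGB group. The 7 genes of MHC class II were high in sham replicate 3, with Cd74 at 22.1, 11.1, 804 and 126 CPM in the sham group and 47.9, 24.2 and 33.0 CPM in the RYGB group. They overlapped in the full set, and without the 3 libraries with pancreatic RNA all 7 were lower without overlap (10.1% of all genes), with a log2 fold change of -3.18 for Cd74 against -1.07 with all libraries. Sham replicates 1 and 2, which were then left out, had less Cd74 than any RYGB library.

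Most marker genes of lymphocytes and macrophages had a higher mean in the RYGB group, again at low levels. Of the 8 measured T cell and intraepithelial lymphocyte markers, 7 had a higher level at an unadjusted p under 0.05 (15.0% of all genes), and 1, Cd3g, was without overlap (12.7%). The summed list ranged from 56.7 to 183 CPM in the sham libraries and from 133 to 363 CPM in the RYGB libraries, with sham replicate 4 the highest of its group. Cd3g, a chain of the T cell receptor complex, had 4.5, 2.7, 2.0 and 6.8 CPM in the sham libraries and 16.8, 7.4 and 10.2 CPM in the RYGB libraries, and the log2 fold change was 1.35 (SE 0.37, adjusted p = 0.15). Cd8a had 7.1, 4.8, 4.9 and 20.2 CPM in the sham group and 37.8, 17.5 and 26.0 CPM in the RYGB group, and the general leukocyte marker Ptprc had 7.2, 6.5, 7.9 and 19.6 CPM in the sham group and 46.5, 18.1 and 29.7 CPM in the RYGB group. The granzyme Gzma had 59.3, 27.2, 24.8 and 78.6 CPM in the sham libraries and 144, 45.1 and 97.9 CPM in the RYGB libraries, with RYGB replicate 2 inside the sham range. When sham replicate 4 was left out, 6 of the 8 markers were DEGs, all higher (4.79% of all genes), among them Cd3g with 1.59 (adjusted p = 0.0323), Cd8a with 2.04 (adjusted p = 0.0163) and Ptprc with 1.89 (adjusted p = 0.0211). Igha, the heavy chain of IgA, had 34.5, 1.3, 4.1 and 13.8 CPM in the sham group and 46.4, 66.8 and 69.1 CPM in the RYGB group, and Jchain, which joins its units, had 5.9, 1.4, 1.1 and 2.1 CPM in the sham group and 9.9, 8.5 and 9.6 CPM in the RYGB group. Of the 7 listed macrophage markers 4 were measured. Of these, 3 had a higher level at an unadjusted p under 0.05 (15.0% of all genes) and 1 was higher without overlap (12.7%). Without the 3 libraries with pancreatic RNA all 4 were (30.3% of all genes). A gene was measured only if 3 or more libraries reached 1 CPM. At such low levels a gene high in the RYGB group passes more easily, so these counts are no support for a difference. The same limit holds for the low genes of the lymphocyte, fibroblast, crypt and cell cycle lists. Csf1r had 3.4, 1.1, 0.4 and 1.1 CPM in the sham libraries and 9.6, 3.5 and 7.5 CPM in the RYGB libraries, and C1qa had 2.3, 1.0, 0.3 and 0.8 CPM in the sham group and 6.9, 2.0 and 4.7 CPM in the RYGB group. Mpeg1, a pore-forming protein of phagocytes, had 5.6, 1.5, 0.6 and 1.4 CPM in the sham group and 12.1, 5.9 and 8.7 CPM in the RYGB group, and Adamdec1, a metalloprotease, had 3.5, 0.7, 0.5 and 0.7 CPM in the sham libraries and 11.8, 4.2 and 6.7 CPM in the RYGB libraries. The fibroblast marker Col3a1 overlapped, at 5.2, 4.2, 0.6 and 1.0 CPM in the sham group and 10.0, 4.3 and 6.7 CPM in the RYGB group. The 2 measured fibroblast markers together ranged from 0.8 to 8.2 CPM in the sham libraries and from 6.5 to 14.3 CPM in the RYGB libraries, and without the 3 libraries with pancreatic RNA both were higher without overlap (30.3% of all genes). RYGB replicate 1 was the highest library for Cd3g, Cd8a, Ptprc, Gzma, Csf1r, C1qa, Mpeg1, Adamdec1 and Col3a1, as for the crypt and cell cycle genes above. For Igha it was the lowest RYGB library. More cells of a type and more RNA per cell cannot be told apart in such bulk samples, and the part that stromal tissue from below the epithelium had in these values was not tested. The 2 measured erythroid markers overlapped, 0 neutrophil markers were among the analysed genes, and the 4 measured tuft cell markers overlapped (median 0.72 on the log2 scale).

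The same genes were looked up in the villi of the jejunum (3 RYGB and 4 sham libraries) and of the ileum (5 and 5). The labels do not say whether the same mice gave all 3 segments, and the tables were normalized separately, so that the values stand side by side without a test between them. In the jejunum Ephx1 had a log2 fold change of -3.12 (adjusted p = 0.0314, limma), lower as in the duodenum. The other genes named above for the most negative values in the duodenum also had negative estimates in the jejunum. They ranged from -3.54 for Cyp4a10 to -0.49 for Gm6977, and none of them was a DEG there. In the ileum the estimate had the opposite sign for every one of the 9 genes named above for the most negative values in the duodenum, except Gm6977, which was not analysed there. Ces2b had a log2 fold change of 3.03 (adjusted p = 0.0262) there, Me1 3.02 (adjusted p = 0.0117) and Ces2a 2.41 (adjusted p = 0.0107), all limma. Ephx1 was not a DEG in the ileum (log2 fold change 1.14, adjusted p = 0.214). Pdk4 was lower in all 3 segments by its estimate, with -1.76 in the duodenum, -4.52 in the jejunum (adjusted p = 0.000414) and -1.03 in the ileum (adjusted p = 0.0972). The lymphocyte markers differed in sign between the segments. Cd8a had log2 fold changes of 1.62 in the duodenum, -1.88 in the jejunum (adjusted p = 0.00411) and -1.99 in the ileum (adjusted p = 0.00962). For Cd3g they were 1.35, -1.72 (adjusted p = 0.00461) and -1.48 (adjusted p = 0.0137). Mbl2 had 2.95 in the jejunum and 0.22 in the ileum, neither a DEG, and Clca3b was a DEG in the jejunum with 3.90 (adjusted p = 0.00448). Abcc6 was a DEG in the opposite direction in the jejunum with -1.41 (adjusted p = 0.0471, limma), and had -0.97 in the ileum. Cttnbp2 was a DEG in the opposite direction in the ileum with -0.80 (adjusted p = 0.0449, limma), where no library exceeded 2.4 CPM. Of all genes tested, 4.62% were DEGs with a higher and 5.13% with a lower level in the jejunum, and 1.64% and 4.42% in the ileum. Without overlap were 9.75% higher and 12.5% lower in the jejunum, and 2.42% and 6.92% in the ileum.

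**Figure D5:**
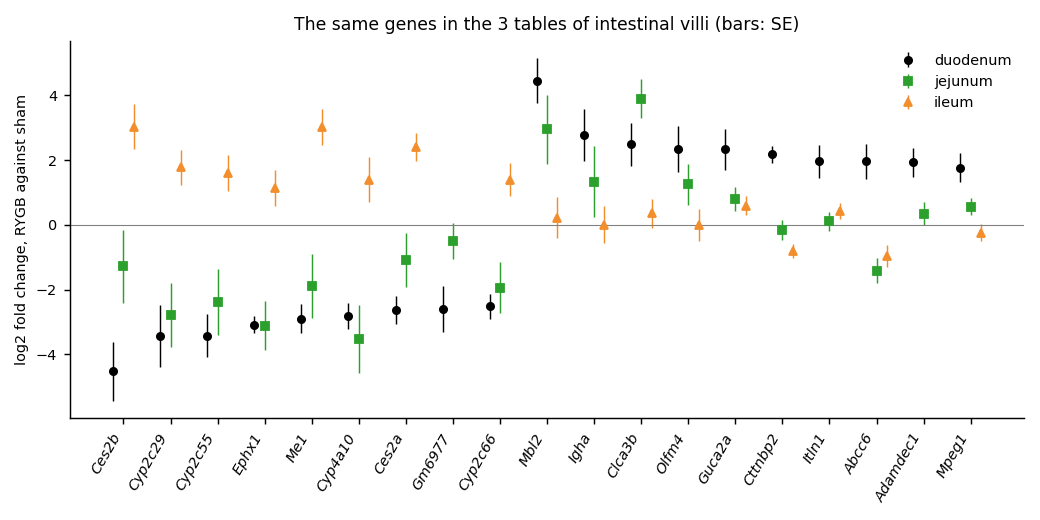
Log2 fold changes of RYGB against sham with SE for 19 genes named for the largest differences in the duodenum, in the tables of duodenum, jejunum and ileum. Every gene below 0 in the duodenum also lies below 0 in the jejunum. Every such gene that was measured in the ileum lies above 0 there, while Mbl2 lies at 4.46 in the duodenum and at 0.22 in the ileum.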

How the data were processed

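The duodenum table was deposited by the authors as CPM, the counts of a gene scaled to a common library total, rounded to 0.1. The jejunum and ileum tables hold CPM too, entered here as signal as deposited by the authors, since repeated lines carry their column sums past the common total. HTSeq and GRCm38 are named in the submitters' processing notes, the aligner is not given in the sources used here, and the kit for the libraries kept the strand. Repeated lines (298 in the duodenum, 359 in the jejunum and 326 in the ileum) were counted once. Of 10907 Ensembl IDs, 10831 matched a GENCODE M21 symbol. Each gene of the table was at 1 CPM or more in 3 or more libraries, so a gene high in 1 group passes more easily.

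RYGB was compared with sham on log2(CPM + 1) with limma (version 3.58.1, R 4.3.3, empirical Bayes with a trend), for genes averaging 1 CPM or more. The fold change understates low genes. The method was tested on simulated data. Genes named were the 10 largest log2 fold changes in each direction without overlap (mean of the higher group at least 5 CPM, acinar genes left out), and from each of 23 gene lists and 13 marker lists up to 6 members without overlap and 4 by level. For 3 list members no result is reported here, and the list counts leave them out. The members and lists were chosen with earlier results of these data known. Nothing says that libraries are separate mice beyond the replicate numbers, so p-values measure the spread between these libraries. Tables were prepared with Python 3.11.15 and pandas 2.3.3.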

Additional observations from a re-analysis of the deposited data

Results flagged for a closer look

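For 8 of the 91 named genes, 1 sham library lay far from the other 3, by the ratio of its gap on the log2 scale to the range of the group (Dixon's test at the 95% level). Chance gives about 1 in 20, or 4.5 of 91. In 7 of them it was sham replicate 4, with ratios of 0.879 for Chga, 0.879 for Gsta4, 0.87 for Ces2c, 0.867 for Acadl, 0.854 for Sc5d, 0.848 for Fitm2 and 0.831 for Ptprc. Sham replicate 4 was the lowest sham library for Gsta4, Ces2c, Acadl, Sc5d and Fitm2 and the highest for Chga and Ptprc, and in each case it was nearer to the RYGB mean than the other sham libraries were. For Adamdec1 it was sham replicate 1, with 3.5 CPM and a ratio of 0.886.

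For 12 of the named genes, the levels did not overlap in the duodenum and did not overlap in the opposite direction in another segment. The difference between segments was not tested. In log2 fold change, the duodenum minus the ileum was -7.56 for Ces2b, -5.92 for Me1, -5.04 for Ces2a, -3.85 for Ces2c, -2.26 for Acadl, -1.99 for Slc25a20, -1.48 for Ftl1, -1.41 for Hadha, -1.16 for Sar1b and -0.94 for Creld2. The duodenum minus the jejunum was -1.18 for Pgd and -0.93 for Creld2. For Cd3g the sign was the other way, with 3.07 against the jejunum and 2.82 against the ileum.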

How the results depend on the processing

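The number of DEGs rested on single libraries, and so did the call of Ephx1. There was 1 DEG with a pseudocount of 0.1, without a minimum, for genes averaging 10 CPM or more, with median ratio scaling and with CPM recomputed without the acinar list. Leaving out 1 library gave from 0 to 733 DEGs, from 0 to 520 of them higher and from 0 to 213 lower (limma, adjusted p under 0.05). The 0 without sham replicate 2, sham replicate 3, RYGB replicate 2 or RYGB replicate 3 stood beside 1461, 1571, 1529 and 1226 genes with an unadjusted p under 0.05. Without sham replicate 1 there were 5 and without RYGB replicate 1 there were 2. With the 3 libraries with pancreatic RNA left out there were 0 DEGs, 0 of them lower, and 853 genes with an unadjusted p under 0.05. In the full set the unadjusted count was 2040. Array weights gave 990 DEGs, 742 higher and 248 lower, with RYGB replicate 3 weighted at 4.384 and sham replicate 4 at 0.4872.

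The labels number the libraries of both groups, and equally numbered libraries did not deviate together (correlations of -0.053, -0.061 and -0.166, and 0 of 3 correlated best with its own number). With the replicate block, from which sham replicate 4 drops out for want of a partner, there were 268 DEGs, 182 higher and 86 lower.

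Genes without overlap numbered from 1555 to 2479 higher and from 374 to 947 lower when 1 library was left out, which makes separation easier. They numbered 3292 and 1095 without the 3 libraries with pancreatic RNA, 863 higher among genes averaging 10 CPM or more, and 685 and 795 after median ratio scaling.

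The log2 fold change of Ephx1 was negative in each alternative. Without the 3 libraries with pancreatic RNA it was -3.42 (adjusted p = 0.0637), and with 1 library left out it ranged from -3.31 to -2.90. Of the 91 named genes 81 kept their sign in every alternative. None of the others was a DEG in the full set or where the sign turned. Without the 3 libraries with pancreatic RNA the log2 fold change turned to -0.10 for Npc1l1, -0.09 for Slc5a1, 0.15 for Pdx1, -0.02 for Gip, -0.09 for Ppara and -0.09 for Nr1i3. Array weights gave 0.05 for Pdx1 and 0.02 for Cck. For Nr1i2 it was -0.10 after median ratio scaling and -0.00 without the acinar list, and from -0.05 to 0.15 with 1 library left out. With 1 library left out Apob ranged from -0.24 to 0.11, Pdx1 from -0.97 to 0.23, Cck from -0.18 to 0.18 and Cd74 from -1.94 to 0.08. The cause of these turns was not tested. Without sham replicate 4, 38 named genes besides Ephx1 were DEGs.

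The depth is unknown and values are rounded to 0.1 CPM, which limits genes under about 1 CPM, such as the lowest sham values of Mbl2, Clca3b and Ccna2. With 3 against 4 libraries, many differences described here by non-overlap could not be told from the spread between libraries.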
